A study of Mus musculus with 15 samples.

Results

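The genes described here are β-catenin, its TCF/LEF partners and the feedback targets of canonical Wnt signaling, 10 genes of the 56832 in a count table from bone marrow mesenchymal stromal cells (MSCs). They were chosen by symbol: Nkd1, Nkd2, Axin2, Notum, Znrf3, Rnf43, Tcf7, Lef1, Tcf7l2 and Ctnnb1. All 10 were in the table, and all 10 were among the 17204 genes that passed the filter on low counts. RNA was sequenced from cultured MSCs of 16 week old mice on the C57BL/6J background, grown from long bones. The series text names magnetic sorting to CD45- cells, and the methods of the study describe depletion of CD45+, Ter119+ (erythroid) and CD31+ (endothelial) cells on magnetic beads, with flow sorting as the other route. The controls were TauT+/+ mice, and the compared mice were TauT−/−, a global knockout of the taurine transporter TauT, which the gene Slc6a6 encodes. The knockout therefore covers every tissue of the animal, not the MSCs alone. The libraries were labelled as 4 male TauT+/+, 4 male TauT−/−, 3 female TauT+/+ and 4 female TauT−/− samples. The question was how the transcripts of this branch of the Wnt pathway differ when MSCs lack the transporter.

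In canonical Wnt signaling, a Wnt ligand at its receptor stops the destruction complex from degrading β-catenin, the product of Ctnnb1. β-catenin then enters the nucleus and binds the DNA-binding factors Tcf7, Lef1, Tcf7l1 and Tcf7l2 at target genes. Several targets encode inhibitors of the same pathway and close a negative feedback loop, and in the bone marrow the pathway is best known for directing stromal cells toward bone-forming cells. Axin2 is a scaffold of the destruction complex, Nkd1 and Nkd2 bind Dishevelled inside the cell, Notum is a secreted enzyme that removes the lipid from Wnt ligands, and Znrf3 and Rnf43 are membrane ubiquitin ligases that clear Frizzled receptors from the surface.

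Some libraries stood apart and touch the results that follow. Male-labelled libraries had 69764291 to 101575071 counts and female-labelled libraries 12761107 to 20781070, so that labelled sex and depth cannot be told apart, while each depth held both genotypes. The libraries labelled male and female TauT−/− 1 had a spread of log2 differences over genes of 0.118 (1.5 times their counting error), and those labelled male and female TauT+/+ 1 one of 0.130 (1.55 times), against 0.282 for the next closest of the 105 pairs. In 3 libraries (male TauT+/+ 1, male TauT−/− 1 and female TauT+/+ 3) Xist and the Y-linked gene Ddx3y were opposite to the labelled sex. Slc6a6 ranged from 592 to 2591 CPM (read counts scaled to a common library size, after TMM adjustment) in TauT+/+ and from 401 to 1521 CPM in TauT−/− libraries. Its log2 fold change was −0.97 (SE, the standard error, 0.36; edgeR adjusted p = 0.125), and male TauT+/+ 3, male TauT+/+ 4 and female TauT+/+ 3, at 830, 592 and 1289 CPM, lay inside the TauT−/− range. Libraries are therefore named by their labels throughout. No source says which libraries share an animal, and p-values measure the spread between these samples.

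Promoter sequence is shown for the 3 genes whose 250 bases before the canonical GENCODE M39 start on GRCm39 hold the letters CTTTGA, the core that TCF/LEF factors recognize. These are the gene that passed the test (Nkd1) and a pair whose levels varied together over the libraries (Axin2 and Notum). Each stretch is 30 bases, 5′ to 3′ on the strand of the gene, with the core in capitals.
Nkd1: cgtccgcctcgcCTTTGAtgggccgctgcc
Axin2: ctcggctcgcgcCTTTGAagtgcacagtta
Notum: tgtccgccgccgCTTTGAtcccgggggccc
The stretch of Nkd1 is chr8:89247887-89247916 on the plus strand, and its core runs from 26 to 21 bases before the start. The stretch of Axin2 is chr11:108811604-108811633 on the plus strand, with the core 22 to 17 bases before the start. The stretch of Notum is chr11:120552055-120552084 on the minus strand, with the core 53 to 48 bases before the start. The start is that of the canonical transcript. The cores of Nkd1 and Axin2 lie inside the gene positions given below, and that of Notum lies outside. The search covered both strands, and the same letters were found in 3073 of 21770 promoters of protein-coding genes (14.1%). A match is a description of the letters and not a measured binding site.

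Nkd1 was lower in TauT−/− MSCs and was the only member that passed the test. The gene lies on chromosome 8 from 89247890 to 89324577. Among TauT+/+ libraries it had 51.6, 14.5, 3.41 and 2.72 CPM in male 1 to 4 and 53.8, 25.2 and 15.8 CPM in female 1 to 3. Among TauT−/− libraries it had 2.61, 3.38, 3.17 and 0.114 CPM in male 1 to 4 and 2.20, 5.61, 0.764 and 1.30 CPM in female 1 to 4. In words, 5 of the 7 TauT+/+ libraries stood above every TauT−/− library, and male TauT+/+ 3 and 4 lay inside the TauT−/− range. Slc6a6 was also inside its TauT−/− range in those libraries, and in female TauT+/+ 3, whose Nkd1 was above every TauT−/− library. The highest values came from the near-identical pair labelled male and female TauT+/+ 1.

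The mean of Nkd1 was 23.9 ± 21.2 CPM over 7 TauT+/+ libraries (SD, n = 7), against 2.39 ± 1.73 CPM over 8 TauT−/− libraries (SD, n = 8). Both n count each library of the near-identical pairs as a separate sample. The call given next was lost when 1 library of each pair was left out. The fitted difference was 9.72-fold, a log2 fold change of −3.28 (SE 0.75, 95% interval −4.88 to −1.68, edgeR adjusted p = 0.0475). Of all tested genes, 129 were called lower in this comparison (0.75%) and 94 higher (0.546%), and of the members 1 was lower and 0 were higher. In bulk samples, fewer cells of a type that express a gene and less RNA per cell cannot be told apart. The log2 fold change was −2.96 within male-labelled and −3.67 within female-labelled libraries. The difference between the labels was −0.71 (SE 1.45, edgeR adjusted p = 0.9999). Each near-identical pair has a library under either label, so these estimates are not independent. The SE and p of the difference do not allow for that.

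The size of the Nkd1 difference held better than its call. When each library was left out in turn, the log2 fold change lay between −3.55 and −2.65, and the adjusted p of edgeR between 0.0202 and 0.113. The call was kept without male TauT+/+ 3 or without male TauT+/+ 4, and lost without any 1 of the other 13 libraries. Without the female-labelled library of each near-identical pair the log2 fold change was −2.95 (edgeR adjusted p = 0.115), without the male-labelled ones −2.73 (edgeR adjusted p = 0.0974), and without the 3 libraries against their sex label −2.79 (edgeR adjusted p = 0.158). With the replicate numbers within each sex label as a block in the model it was −3.16, and the call was lost (edgeR adjusted p = 0.0510). DESeq2 gave −3.28 with an adjusted p of 0.000195. It called 6.43% of tested genes lower and 5.65% higher, and among the members again Nkd1 alone.

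**Figure D1:**
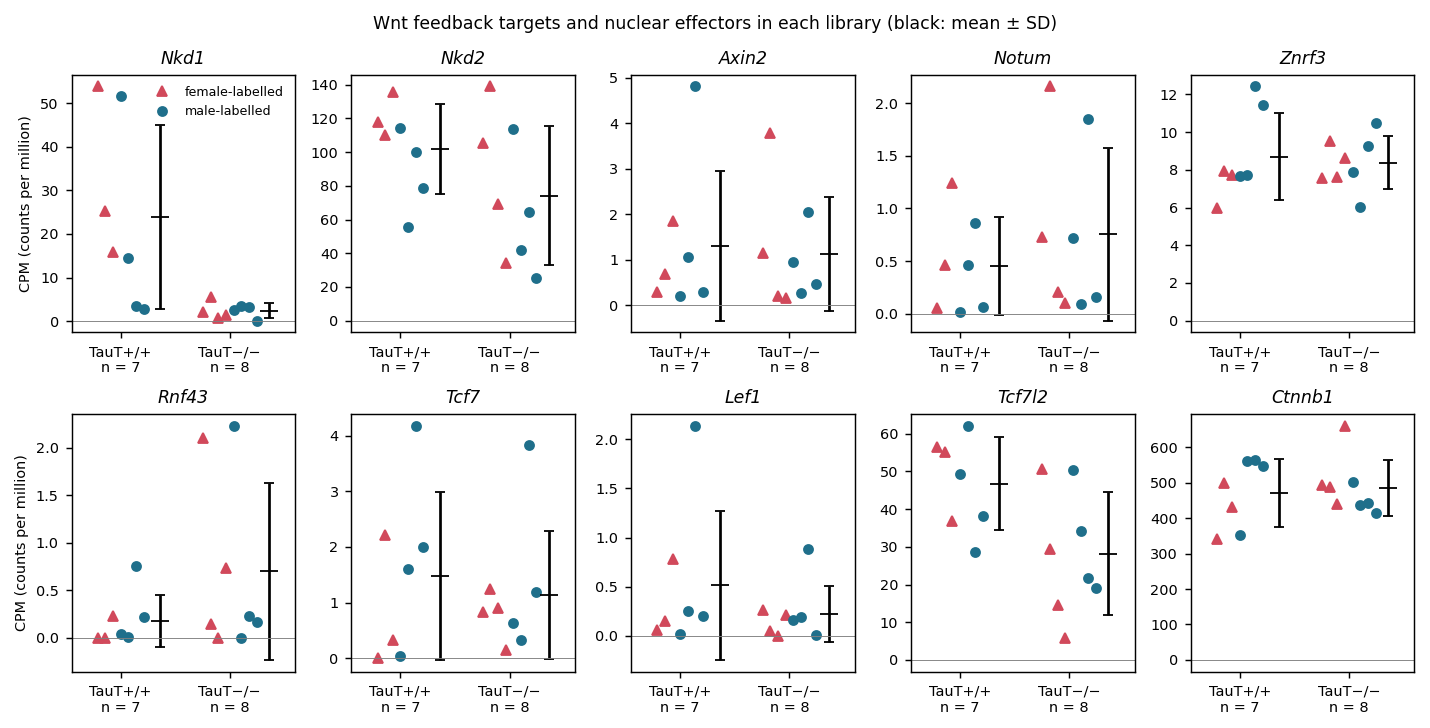
Level of each of the 10 genes in CPM (vertical axes, from 0 counts) in every library, with TauT+/+ (n = 7) on the left and TauT−/− (n = 8) on the right of each panel; triangles are female-labelled and circles male-labelled libraries, and black bars give the mean ± SD. Nkd1 is above 14 CPM in 5 TauT+/+ libraries and at most 5.61 CPM in TauT−/−, while the genotypes overlap in all 10 panels.

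Markers of other cells moved with genotype in the same libraries. All 20 genes of a macrophage list had positive log2 fold changes (median 0.94), of which edgeR called 2 higher and DESeq2 10. Their summed level was 1528 to 10441 CPM in TauT+/+ against 7321 to 24344 CPM in TauT−/− libraries. The summed level of 13 stromal markers was 27900 to 47404 CPM in TauT+/+ against 5962 to 40038 CPM in TauT−/− libraries, with 10 of the 13 log2 fold changes negative (median −0.59). Of these genes edgeR called 0 and DESeq2 called 3 lower. Col1a1, a collagen gene of stromal cells, was at 2323 CPM or more in every library, while Lepr, a marker of marrow MSCs in vivo, was at 2.35 CPM or less. Ptprc, which encodes CD45, remained at 27.9 to 179 CPM in TauT+/+ and at 114 to 370 CPM in TauT−/− libraries after the depletion. The near-identical libraries labelled male and female TauT−/− 1 had macrophage sums of 7321 and 7941 CPM, inside the TauT+/+ range, and Nkd1 at 2.61 and 2.20 CPM. Their stromal sums were 28197 and 26979 CPM, the first near the lower end of the TauT+/+ range and the second below it. With the macrophage list as a covariate, the log2 fold change of Nkd1 was −3.55 (SE 0.89, edgeR adjusted p = 0.253). The summed level of 10 endothelial markers was 9.64 to 20.5 CPM in TauT+/+ libraries (median 16.8). In TauT−/− libraries it was 13.5 to 117 CPM (median 35.1), highest in female TauT−/− 4. Of the 7 tested, 5 log2 fold changes were positive and 2 negative, and edgeR called 0 and DESeq2 1 (Kdr) higher. Kdr and Vwf reached 35.0 and 73.1 CPM in TauT−/− libraries, while Pecam1 and Cdh5 had log2 fold changes of −0.19 and 0.089. The lymphoid and erythroid sums were at most 2.21 and 0.576 CPM, with Cd3e, Cd3g, Cd8a, Cd8b1, Hba-a2 and Hbb-bs at 0 in all 15 libraries.

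Nkd2, the paralog of Nkd1, had the higher level of the pair in all libraries. It lies on chromosome 13 from 73966653 to 73995761. It had 55.7 CPM at the lowest, 110 at the median and 135 at the highest in TauT+/+ libraries, against 25.2, 66.6 and 139 CPM in TauT−/− libraries. In 3 TauT−/− libraries (male 2, male 4 and female 4) it was below every TauT+/+ library, while female TauT−/− 2 held the highest value of all. Its log2 fold change of −0.50 did not pass the test (SE 0.32, 95% interval −1.17 to 0.18, edgeR adjusted p = 0.358). Per kilobase of exon, Nkd1 made up 1.96% to 21.1% of the Nkd1 and Nkd2 total in TauT+/+ libraries (median 11.8%) and 0.264% to 4.48% in TauT−/− libraries (median 1.76%).

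Axin2, the target most often read as the output of canonical signaling, was low in these cultures and did not separate the genotypes. It lies on chromosome 11 from 108811169 to 108841609, and had 3 to 452 counts per library. It had 0.204 CPM at the lowest, 0.688 at the median and 4.81 at the highest in TauT+/+ libraries, and 0.156, 0.711 and 3.79 CPM in TauT−/− libraries. Both genotypes thus held libraries above 2 CPM, male TauT+/+ 3 at 4.81, female TauT−/− 2 at 3.79 and male TauT−/− 3 at 2.05. Between the genotypes the log2 fold change of −0.22 did not pass the test (SE 0.83, edgeR adjusted p = 0.901), with a 95% interval of −1.997 to 1.56. Axin1, the Axin family member that is not a feedback target, had 45.6 ± 8.12 CPM in TauT+/+ against 56.4 ± 5.55 CPM in TauT−/− libraries (log2 fold change 0.31, SE 0.11, edgeR adjusted p = 0.115). Axin2 was 0.501% to 10.1% of the Axin1 and Axin2 total per kilobase in TauT+/+ libraries and 0.274% to 7.45% in TauT−/− libraries.

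Notum, the secreted Wnt-inactivating enzyme, had 1 to 182 counts per library. It lies on chromosome 11 from 120541446 to 120552019. It had 0.0146 CPM at the lowest, 0.459 at the median and 1.24 at the highest in TauT+/+ libraries, and 0.0919, 0.466 and 2.16 CPM in TauT−/− libraries. The medians lay side by side, and the highest values were in female TauT−/− 2 and male TauT−/− 3. The fitted log2 fold change of 0.75 did not pass the test (SE 0.88, 95% interval −1.13 to 2.62, edgeR adjusted p = 0.634). It was 0.14 without male TauT−/− 3 and 1.24 without female TauT+/+ 3.

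The pair of receptor-clearing ligases behaved differently in level and spread. Znrf3, on chromosome 11 from 5226324 to 5394939, had 5.98, 7.74 and 12.4 CPM (lowest, median, highest) in TauT+/+ and 6.03, 8.27 and 10.5 CPM in TauT−/− libraries. Its means of 8.70 ± 2.32 CPM (SD, n = 7) and 8.38 ± 1.39 CPM (SD, n = 8) gave a log2 fold change of −0.026 (SE 0.17, 95% interval −0.38 to 0.33, edgeR adjusted p = 0.944). Rnf43, on chromosome 11 from 87553548 to 87626377, had 0 counts in 4 libraries and at most 182. Its highest values, 2.23 and 2.10 CPM, were in the near-identical pair labelled male and female TauT−/− 1, and the other 13 libraries had at most 0.756 CPM. The log2 fold change of Rnf43 was 1.94 (SE 1.19, 95% interval −0.62 to 4.49, edgeR adjusted p = 0.341). It was 0.76 without male TauT−/− 1, 2.93 without male TauT+/+ 3 and 0.46 without the 3 libraries opposite to their sex label. Per kilobase, Rnf43 was at most 6.91% of the Rnf43 and Znrf3 total in TauT+/+ and at most 25.7% in TauT−/− libraries.

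Ctnnb1, which encodes β-catenin, was the most abundant member per kilobase in every library. It lies on chromosome 9 from 120757422 to 120789579, and had 340, 498 and 565 CPM (lowest, median, highest) in TauT+/+ and 414, 464 and 661 CPM in TauT−/− libraries. The lowest values were those of the near-identical pair labelled female and male TauT+/+ 1 (340 and 352 CPM), and the highest was that of female TauT−/− 4. Its fitted log2 fold change was 0.042 (SE 0.15, edgeR adjusted p = 0.896), with a 95% interval of −0.28 to 0.36. The transcript says nothing of the stability or location of the protein, through which the pathway acts on β-catenin.

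Of the DNA-binding partners, Tcf7l2 and Tcf7l1 made up nearly all transcripts of the family. Tcf7l2, on chromosome 19 from 55730188 to 55922091, had 28.6, 49.4 and 62.2 CPM (lowest, median, highest) in TauT+/+ and 5.73, 25.6 and 50.7 CPM in TauT−/− libraries. In 4 of the 8 TauT−/− libraries (numbers 3 and 4 under both sex labels) it lay below every TauT+/+ library. The log2 fold change was −0.73 (SE 0.37, 95% interval −1.51 to 0.058, edgeR adjusted p = 0.244), with −0.51 in male-labelled and −0.98 in female-labelled libraries. With the macrophage list as a covariate it was −0.26 (SE 0.40, edgeR adjusted p = 0.870). Tcf7l1, which mostly acts as a repressor, had 47.6 ± 19.3 CPM over 7 TauT+/+ libraries (SD, n = 7), against 35.8 ± 18.8 CPM over 8 TauT−/− libraries (SD, n = 8) (log2 fold change −0.41, SE 0.35, edgeR adjusted p = 0.4998).

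Tcf7 and Lef1, the members of the family that are Wnt targets as well as effectors, were near the limit of detection in some libraries. Tcf7, on chromosome 11 from 52143107 to 52174619, had 0, 1.601 and 4.18 CPM (lowest, median, highest) in TauT+/+ and 0.156, 0.871 and 3.84 CPM in TauT−/− libraries, with 0 counts in 1 library. Its log2 fold change was −0.25 (SE 0.85, 95% interval −2.06 to 1.56, edgeR adjusted p = 0.889). Lef1, on chromosome 3 from 130903919 to 131018005, had 0.0146, 0.202 and 2.14 CPM in TauT+/+ against 0, 0.177 and 0.886 CPM in TauT−/− libraries, with 0 counts in 1 library. Its log2 fold change was −1.17 (SE 0.93, 95% interval −3.16 to 0.83, edgeR adjusted p = 0.470). For both genes the highest library was male TauT+/+ 3 and the next male TauT−/− 3, one of each genotype.

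Per kilobase of exon, the summed level of Tcf7, Lef1, Tcf7l1 and Tcf7l2 was 9.29 to 20.2 CPM in TauT+/+ libraries (median 16.8) and 3.05 to 17.8 CPM in TauT−/− libraries (median 9.31). Tcf7l1 held 53.9% to 70.3% of this sum in TauT+/+ and 60.2% to 77.0% in TauT−/− libraries. The share of Tcf7l2 was 29.6% to 44.3% in TauT+/+ and 21.0% to 33.6% in TauT−/− libraries. Tcf7 reached at most 10.8% in TauT+/+ and 11.3% in TauT−/− libraries, and Lef1 at most 2.28% and 1.07%. The genotypes overlapped in the sum and in each share.

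**Figure D2:**
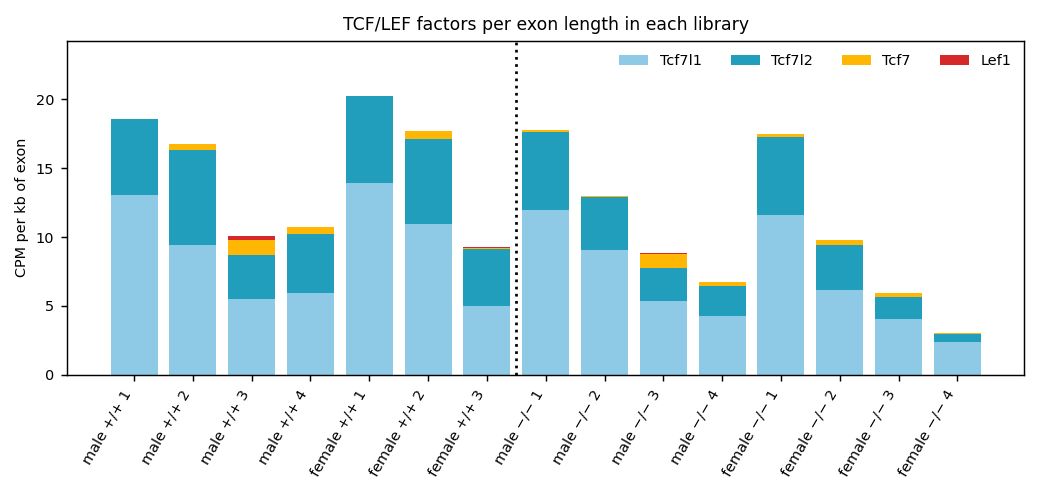
Level of the 4 TCF/LEF factors per kilobase of exon (vertical axis, CPM per kb, from 0) stacked for each library (horizontal axis), TauT+/+ to the left and TauT−/− to the right of the dotted line. Tcf7l1 and Tcf7l2 fill most of each bar, the sum is lowest in female TauT−/− 4 (3.05 CPM per kb), and Tcf7 is widest in male TauT+/+ 3 and male TauT−/− 3.

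Over all 15 libraries, the level per kilobase of exon fell from Ctnnb1 (58.5 ± 10.3 CPM per kb, SD) through Nkd2 (18.0 ± 7.63) and Tcf7l2 (4.11 ± 1.90) to Nkd1 (1.504 ± 2.15) and Znrf3 (1.06 ± 0.227). Then came Tcf7 (0.339 ± 0.337), Axin2 (0.175 ± 0.202), Notum (0.115 ± 0.126), Rnf43 (0.0696 ± 0.112) and Lef1 (0.0384 ± 0.0598). Ctnnb1 exceeded Nkd2, Nkd2 exceeded Tcf7l2, and Znrf3 exceeded Tcf7 in 15 of 15 libraries. Nkd1 and Znrf3 changed places, with Nkd1 above Znrf3 in 5 libraries, all of them TauT+/+. Among the 5 lowest members, Tcf7 exceeded Axin2 in 11 and Axin2 exceeded Notum in 13 of 15 libraries. Notum exceeded Rnf43 in 10 libraries, and Rnf43 exceeded Lef1 in 7.

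Across the members, 7 log2 fold changes were negative and 3 positive, with a median of −0.23, beside a median of −0.015 and 51.7% negative over all tested genes. The median of the members was −0.45 within male-labelled libraries (8 negative) and 0.070 within female-labelled libraries (5 negative). Within each sex label edgeR called 0 members and 0% of all tested genes, with 1483 genes at an unadjusted p under 0.05 in male-labelled and 2518 in female-labelled libraries, in each case with Nkd1 as the only member. DESeq2 called Nkd1 alone of the members within female-labelled libraries (adjusted p = 0.0283), where it called 2.46% of all tested genes, and 0 members within male-labelled libraries, where it called 0.494%. The difference between the labels was called for 0 members and 0% of genes by edgeR, with 242 genes and 0 members at an unadjusted p under 0.05. The near-identical pairs span both labels, so the values within the labels are not independent of each other. In 75 tested genes (0.436%) every TauT−/− library was below every TauT+/+ library, and in 119 (0.692%) every one was above. None of the 10 members was among them, Nkd1 included.

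**Figure D3:**
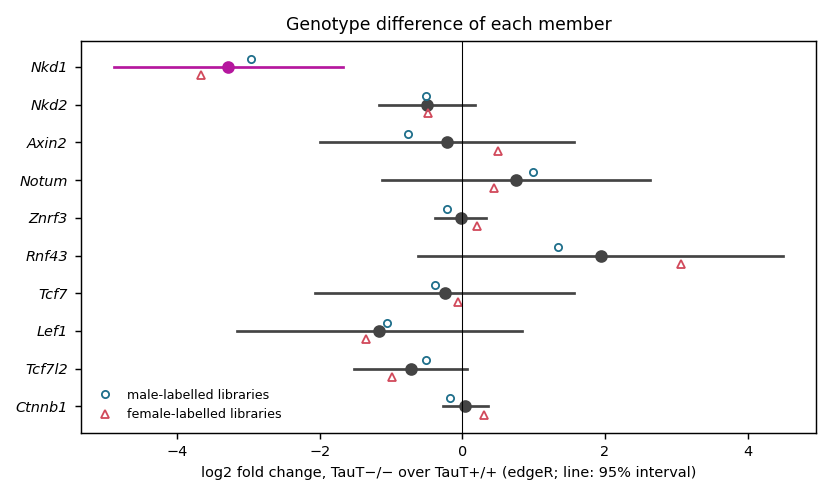
Log2 fold change of each gene in TauT−/− relative to TauT+/+ MSCs (horizontal axis; negative is lower in TauT−/−), with filled points for all 15 libraries, lines for the 95% interval, and open circles and triangles for male-labelled and female-labelled libraries alone. Nkd1 is the one interval that leaves out 0 (−4.88 to −1.68), and the intervals of Ctnnb1 and Znrf3 are the narrowest.

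The low members varied between libraries of both genotypes. Axin2 and Notum rose and fell together: both were high in male TauT+/+ 3 and female TauT+/+ 3 and in male TauT−/− 3 and female TauT−/− 2, and both were low in male TauT+/+ 1 and female TauT−/− 4. This relation was examined after the values had been seen, and the p-values given for it do not account for that choice of pair. Over the 13 libraries left when the female-labelled library of each near-identical pair was set aside, the log2 levels of Axin2 and Notum had a Pearson r of 0.883 (permutation p = 0.00024, 0.00216 adjusted over the 9 other members) and a Spearman rho of 0.879 (permutation p = 0.00016, adjusted 0.00144). Without male TauT+/+ 3 and female TauT−/− 2, the libraries farthest from the median of Axin2, r was 0.956 over 11 libraries. It was 0.824 over the 8 male-labelled and 0.997 over the 5 female-labelled libraries, and 0.908 after the genotype means were removed. The libraries labelled male TauT+/+ 3 and male TauT−/− 3 were also the next closest pair of the whole table by their spread.

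Lef1 had a Pearson r of 0.676 with Axin2 (permutation p = 0.0111, adjusted 0.05) and a Spearman rho of 0.511 (permutation p = 0.0771, adjusted 0.231). The first lay at the threshold to the digits given, and the second did not pass it. Leaving out the same 2 libraries gave r = 0.816, and r was 0.926 in male-labelled and 0.227 in female-labelled libraries. Tcf7 had r = 0.57 (permutation p = 0.0435, adjusted 0.131) and rho = 0.648 (permutation p = 0.0189, adjusted 0.0851), with r = 0.454 without the same 2 libraries, 0.78 in male-labelled and 0.239 in female-labelled libraries. The relation of Nkd1 to Axin2 did not pass the test (r = 0.133, permutation p = 0.661, adjusted 0.661; rho = 0.28, permutation p = 0.356, adjusted 0.458), with r = 0.238 without the same 2 libraries, −0.136 in male-labelled and 0.535 in female-labelled libraries. The other 5 members had r between 0.149 and 0.489, with adjusted permutation p of 0.202 or more.

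**Figure D4:**
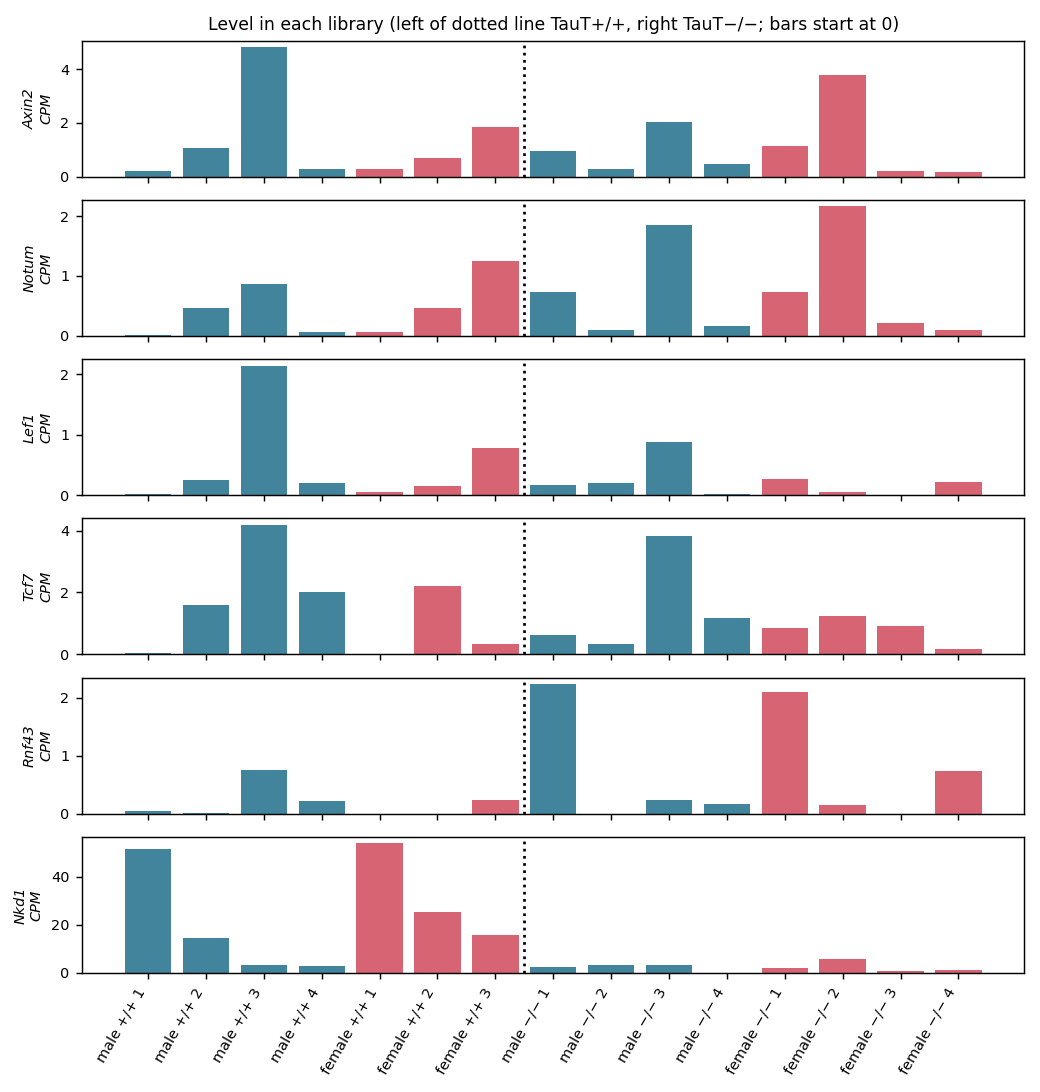
Level in CPM (vertical axes, from 0) of Axin2, Notum, Lef1, Tcf7, Rnf43 and Nkd1 in each of the 15 libraries (horizontal axis), TauT+/+ left and TauT−/− right of the dotted line, blue for male-labelled and red for female-labelled libraries. Axin2 and Notum are high in the same libraries of both genotypes, Rnf43 stands out in male and female TauT−/− 1, and Nkd1 is high only among TauT+/+ libraries.

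For 3 members, the tested genes averaging 1 CPM or more with the most similar levels over the 15 libraries were listed. This is a description with no test, since all genes share the libraries and their depth. Nkd1 was followed most closely by Limch1 (r = 0.968), Lbp (r = 0.927) and Exoc3l4 (r = 0.924), and Axin2 by Vnn1 (r = 0.915), St3gal3 (r = 0.901) and Pcsk5 (r = 0.87). Notum, which averaged less than 1 CPM, had r = 0.888 with Axin2 over the same 15 libraries. For Ctnnb1 they were Tmem37 (r = 0.837), Rheb (r = 0.81) and Ppfia1 (r = 0.808). Over 13 libraries the values for Nkd1 were 0.969, 0.907 and 0.914. The genes nearest to Nkd1 did not pass the edgeR test, with log2 fold changes of −3.05, −2.03 and −1.70 and adjusted p of 0.0596, 0.0953 and 0.0619.

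Among 117 other genes of the Wnt pathway, 94 were tested, and edgeR called 3 lower and 0 higher, beside 0.75% and 0.546% of all genes. All 3 were receptors, out of 19 tested receptor and R-spondin genes of which 17 had a negative log2 fold change (median −0.35). They were the Frizzled genes Fzd5 and Fzd1 and the co-receptor Lrp6, with log2 fold changes of −2.18 (SE 0.41, edgeR adjusted p = 0.0293), −1.24 (SE 0.28, edgeR adjusted p = 0.0459) and −1.02 (SE 0.22, edgeR adjusted p = 0.0400). None of the 3 was called with the macrophage covariate or when 1 library of each near-identical pair was left out. DESeq2 called 4 genes of the receptor and R-spondin list lower and 0 higher, beside 6.43% and 5.65% of all tested genes. Fzd4, named after its values were seen, was among them (edgeR log2 fold change −2.62, SE 0.71, edgeR adjusted p = 0.0692, DESeq2 adjusted p = 0.00223). Frizzled proteins are the substrates that Znrf3 and Rnf43 clear.

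The other lists had 0 edgeR calls. DESeq2 called 0 ligand genes lower and 1 higher, and 0 inhibitors in either direction. The called ligand was Wnt6 (edgeR log2 fold change 2.06, SE 0.70, edgeR adjusted p = 0.106, DESeq2 adjusted p = 0.0189), named after its values were seen. Of 12 tested ligand genes 6 were negative (median 0.020), of 9 tested secreted and surface inhibitors 5 were negative (median −0.42), and of 19 genes of Dishevelled and the destruction complex 10 were negative (median −0.028). In that complex, Apc, the scaffold that binds β-catenin, had a log2 fold change of 0.023 (SE 0.12), and the kinases Gsk3b and Csnk1a1 had −0.10 (SE 0.16) and −0.042 (SE 0.10). DESeq2 called 2 genes of this list lower and 3 higher, beside 6.43% and 5.65% of all tested genes. The called genes were named after their values were seen. Apc2 (log2 fold change by edgeR −1.29, SE 0.33) and Tnks (−0.99, SE 0.31) were lower, and Axin1, Csnk1d (0.20, SE 0.088) and Fbxw11 (0.38, SE 0.11) were higher.

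Of 14 nuclear partners and co-repressors 10 were negative (median −0.23). Bcl9, which joins β-catenin to Pygo proteins, had 57.5 ± 10.0 CPM in TauT+/+ against 42.4 ± 4.43 CPM in TauT−/− libraries (log2 fold change −0.44, SE 0.12, edgeR adjusted p = 0.0652). Its paralog Bcl9l had a log2 fold change of −0.30 (SE 0.21, edgeR adjusted p = 0.414), and Pygo2 one of −0.25 (SE 0.085, edgeR adjusted p = 0.109). The co-repressor Tle3 had 0.26 (SE 0.11, edgeR adjusted p = 0.162), and Ctnnbip1, which keeps β-catenin from TCF factors, had −0.20 (SE 0.16, edgeR adjusted p = 0.470). DESeq2 called 2 genes of this list lower, Bcl9 (adjusted p = 0.00892) and Pygo2 (adjusted p = 0.0446), and 1 higher. Over all tested genes it called 6.43% lower and 5.65% higher. Axin1, of the destruction complex list, had a DESeq2 adjusted p of 0.0450.

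Of 21 tested other target genes 13 were negative (median −0.17). DESeq2 called 1 of them lower and 2 higher (Myc and Lgr5), beside 6.43% and 5.65% of all tested genes. Myc, a growth regulator, had 51.6 ± 18.5 CPM in TauT+/+ against 95.8 ± 44.9 CPM in TauT−/− libraries (log2 fold change 0.88, SE 0.31, edgeR adjusted p = 0.114, DESeq2 adjusted p = 0.0456). Ccnd1, which encodes cyclin D1, had 607 ± 205 and 449 ± 177 CPM (log2 fold change −0.44, SE 0.38, edgeR adjusted p = 0.496). Lgr5, an R-spondin receptor and target gene, ranged from 1.33 to 16.2 CPM in TauT+/+ and from 0.0521 to 295 CPM in TauT−/− libraries (log2 fold change 3.97, SE 1.43, edgeR adjusted p = 0.121, DESeq2 adjusted p = 0.0165). Sp5, which responds to Wnt in many tissues, had at most 10 counts in any library and was not tested.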

How the data were processed

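Bulk RNA-sequencing of cultured MSCs was analyzed in 15 libraries. The authors amplified full-length cDNA, filtered reads with fastp 0.23.1, mapped them with STAR 2.7.9a to GRCm39 with GENCODE M31 and counted them by strand with featureCounts (Subread 2.0.1). The deposited table holds raw counts for 56832 genes, and 0 columns lacked a sample. Testing used edgeR 4.0.16 in R 4.3.3 (TMM, filterByExpr, quasi-likelihood test, labelled sex and genotype in the model, as in the study's DESeq2 model) and adjusted by Benjamini-Hochberg over 17204 genes (threshold 0.05, biological coefficient of variation 0.482). Contrasts within a sex label used 1 term per group. DESeq2 1.42.0 was the alternative tool. Correlations used log2(CPM + 0.5) and 100000 permutations (two-sided, Python 3.11.15, SciPy 1.17.1), with p adjusted over 9 relations. Positions, exon lengths and sequence are those of GENCODE M39 and GRCm39. Low genes carry counting error on top of the replicate spread.

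In simulated counts of 16872 genes, 200 were changed 4-fold. Of these edgeR recovered 182 (91%) among 187 calls, and DESeq2 193 (96.5%) among 238 calls. The changed genes were drawn from those averaging 1 CPM or more, and each library was simulated independently. These shares therefore do not cover lower members such as Notum, Rnf43 and Lef1, nor near-identical libraries. Members, lists and tests were chosen with earlier results of these data known. Named genes are the members, Slc6a6, 14 set pathway genes, pathway genes called by edgeR, and for Nkd1, Axin2 and Ctnnb1 the 3 genes averaging 1 CPM or more with the highest r. Some pathway genes that DESeq2 alone called were named after their values were seen. Alternatives were upper-quartile normalization, no filter, at least 10 counts in every library, no sex term, a replicate block, a macrophage covariate, and leaving out single or doubtful libraries.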

Additional observations from a re-analysis of the deposited data

Results flagged for a closer look

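In groups of 4 libraries, 30 gene and group combinations were searched for a library far from the others, where chance flags about 1 in 20 (1.5 expected), and 2 were found. Nkd1 was low in male TauT−/− 4 (0.114 CPM against 2.61 to 3.38 CPM in male TauT−/− 1 to 3), with a gap of 0.881 of the range on the log2 scale. Ctnnb1 was low in male TauT+/+ 1 (352 CPM against 546 to 565 CPM in male TauT+/+ 2 to 4), with a gap of 0.927 of the range. Male TauT+/+ 1 belongs to a near-identical pair, and female TauT+/+ 1 had 340 CPM.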

How the results depend on the processing

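Nkd1 stayed lower under every alternative run, and the count of members called lower went from 1 to 0 with no filter (edgeR adjusted p = 0.0573), with the macrophage covariate, with both sets of 13 libraries, with the 12 libraries left without those opposite to their sex label, and to 0 to 1 when single libraries were left out. The count of members called higher stayed 0. The count of other pathway genes called lower was 9 with DESeq2, 1 with no filter, 5 with at least 10 counts in every library, 0 with the macrophage covariate, 0 with both sets of 13 and with the 12 libraries, and 0 to 7 without single libraries, against 3. The count called higher was 7 with DESeq2 and 0 to 3 without single libraries, against 0. Within female-labelled libraries DESeq2 called 1 member (Nkd1) beside 2.46% of all tested genes, against 0 members and 0% by edgeR. The cause of these changes was not tested, beyond the fewer libraries or other genes tested that each alternative brings.

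Replicate numbers correlated at 0.25, 0.256, 0.642 and 0.167 in male-labelled and at 0.327, 0.103 and −0.0225 in female-labelled libraries. Because the last was below 0 and no source ties a number to an animal, the main fit did not take them as pairs. Whether they are pairs was not tested. All 4 male-labelled TauT+/+ libraries and 1 of 3 female-labelled ones correlated best with their own number. With the replicate block, 0 members were called, and Nkd1 had −3.16 (edgeR adjusted p = 0.0510). The sign turned under the block for Axin2 (0.20), Tcf7 (0.39) and Ctnnb1 (−0.012). Ctnnb1 also turned with 13 libraries (−0.013 and −0.025) and with 12 (−0.027). Without single libraries the ranges were −0.80 to 0.67 for Axin2, −0.80 to 0.41 for Tcf7, −0.075 to 0.057 for Znrf3 and −0.031 to 0.10 for Ctnnb1. With no change of sign they were 0.14 to 1.24 for Notum, 0.76 to 2.93 for Rnf43, −1.43 to −0.67 for Lef1 (tested in 12 of the 15 fits), −0.71 to −0.35 for Nkd2 and −0.94 to −0.57 for Tcf7l2. Counts of Axin2, Notum, Rnf43, Tcf7 and Lef1 were under 5 in at least 1 library, which limits the precision of their levels there. For Notum, Rnf43, Tcf7 and Lef1 these include male-labelled libraries, the deeper ones.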
